A study of Mus musculus with 24 samples.

Results

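The microRNAs (miRNAs) of the imprinted Dlk1-Dio3 locus were followed in the inner lining (intima) of mouse carotid arteries, in left carotids after partial ligation and in the right carotids that served as controls. Members were the probes whose target name, without the species prefix, was 1 of 55 listed mature miRNAs of the locus, with star names left out, and all 55 were found among the 655 probes of the array. The arrays fall into 4 groups of 6: left carotid at 12 h, right carotid at 12 h, left carotid at 48 h and right carotid at 48 h after surgery. All mice were male C57Bl6 animals aged 6 to 8 weeks. In partial ligation most caudal branches of the left carotid are tied and 1 is kept open, which lowers the flow there and makes it oscillate, as ultrasound showed for each mouse per the series' design text, and the right carotid came from operated mice without ligation of its own branches. No sham-operated or unoperated mice are among the groups, so flow, surgery and side of the body cannot be told apart. RNA was taken by flushing the vessel with a lysis reagent, and the labels do not say whether a numbered sample is 1 animal or a pool, so p-values measure only how far these samples differ from each other, which may be technical.

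In mammals the Dlk1-Dio3 locus is imprinted: protein-coding genes such as Dlk1, Rtl1 and Dio3 are expressed from the paternal chromosome, and long non-coding RNAs such as Meg3, Rian and Mirg from the maternal one. The miRNAs of the locus are cut from the maternal transcripts, among them a transcript antisense to Rtl1 whose miRNAs pair fully with the Rtl1 message. They are best known from brain, placenta and embryo. In mouse hind limbs made ischemic, inhibition of some of them, miR-329, miR-487b and miR-494 included, has been reported to increase vessel growth.

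The files place all 55 members on the plus strand of chromosome 12, with starts between 110801919 and 110981973 in a genome build that the files do not name, a span of 180.1 kb. They come from 45 hairpins, 10 of which have both arms among the members. In this order, 2 members lie in the Meg3 region (both arms of miR-770), 14 lie antisense to Rtl1 (miR-673 to miR-136), 2 lie in Rian (miR-341 and miR-370) and 37 run from miR-379 to miR-410. The deposited target sequences of 50 members matched a mouse mature miRNA of RefSeq (assembly GRCm38.p6) over their whole length, and the miR-154 to miR-410 stretch at the end, 10 members, lies inside Mirg in that annotation. The sequences of the members that the left-right comparisons turn on are shown as deposited, in DNA letters and 5′ to 3′, with the seed (bases 2 to 8, which pairs with target messages) in capitals. The first set is those whose left and right samples did not overlap at 12 h.
miR-154: tAGGTTATccgtgttgccttcg
miR-541: aAGGGATTctgatgttggtcacact
miR-410: aATATAACacagatggcctgt
miR-329: aACACACCcagctaaccttttt
miR-434-3p: tTTGAACCatcactcgactcct
miR-494: tGAAACATacacgggaaacctc

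On GRCm38.p6 these lie at chr12:109738438-109738459 (miR-154) and chr12:109742422-109742446 (miR-541), both inside Mirg. The miR-410 sequence lies at chr12:109743764-109743784, also inside Mirg. The others lie at chr12:109713541-109713562 (miR-329) and chr12:109715367-109715388 (miR-494), inside none of the genes looked up, and at chr12:109594565-109594586 (miR-434-3p), inside Rtl1 on its opposite strand. That lookup left out small RNA genes and some predicted loci. The second set is those detected at 12 h on 4 left arrays and on 0 right arrays.
miR-431: tGTCTTGCaggccgtcatgca
miR-433: aTCATGATgggctcctcggtgt
miR-381: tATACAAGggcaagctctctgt
miR-539: gGAGAAATtatccttggtgtgt
miR-409-3p: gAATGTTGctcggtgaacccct

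Of these, miR-431 (chr12:109590459-109590479) and miR-433 (chr12:109591781-109591802) lie antisense to Rtl1. Both miR-381 (chr12:109726870-109726891) and miR-539 (chr12:109728136-109728157) lie in the stretch between Rian and Mirg, and miR-409-3p (chr12:109743204-109743225) lies in Mirg. The third set is 3 members with large left-right differences at 48 h that were detected on all 6 left arrays, with miR-300 and the miR-376 pair added because their probes are near matches of another member.
miR-770-5p: aGCACCACgtgtctgggccacg
miR-127: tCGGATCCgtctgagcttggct
miR-667: tGACACCTgccacccagcccaag
miR-300: tATGCAAGggcaagctctcttc
miR-376b: aTCATAGAggaacatccactt
miR-376a: aTCGTAGAggaaaatccacgt

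The miR-770-5p sequence lies at chr12:109563710-109563731 inside Meg3, and miR-127 (chr12:109592888-109592909) lies antisense to Rtl1, whose message it helps to cleave in the mouse. No pair of members shared bases 2 to 8: the 55 members carried 55 distinct seeds. Seeds were shared with probes outside the locus list in 3 cases, miR-329 with miR-362-3p, miR-495 with miR-1192, and miR-381 with a sequencing-derived small RNA named solexa-4983-92. The probe of miR-300 differs by 1 base from the target of miR-381 and the reverse, the probe of miR-376a by 2 bases from the target of miR-376b, and the probe of miR-376b by 3 bases from that of miR-376a. Signals within each of these pairs may therefore be shared. The probes of miR-341 and miR-412 match, with 0 mismatches, the targets of the further probes miR-341:9.1 and miR-412:9.1, and signals may be shared there too.

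Each array detected at least 335 of the 655 probes (detection p under 0.05), with the fewest on right arrays 4 (335), 1 (336) and 2 (356) at 48 h. At 12 h the arrays of each artery form 3 pairs (1 and 4, 2 and 5, 3 and 6) with rank correlations of 0.986 to 0.998, against 0.877 at most for any other pair, so they were taken as repeat arrays and averaged, which leaves 3 samples per artery. At 48 h there were 6 samples per artery. By correlation over all probes, right sample 1 at 12 h and right samples 3 and 5 at 48 h were nearer to the left samples than to their own group. All arrays detected miR-126-3p and miR-126-5p, which mark endothelium, and miR-143 and miR-145, which mark smooth muscle. Summed signals of markers, here and below, are sums of the deposited signal before normalisation. The summed signal of the 2 endothelial probes ran at 12 h from 41636 to 47249 on left arrays and from 42630 to 48267 on right arrays. At 48 h it ran from 5560 to 24491 on left arrays and from 1404 to 27882 on right arrays.

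Detection split the locus unevenly. On all 24 arrays 16 members (29.1%) were detected, against 204 of the other 600 probes (34%), on none 4 members (7.27%, against 11%), and on some but not all 35 members (63.6%, against 55%). Of the 16, 13 belong to the stretch from miR-379 to miR-410: miR-379, miR-299, miR-323-3p, miR-758, miR-329, miR-494, miR-679, miR-667, miR-376b, miR-376a, miR-487b, miR-382 and miR-369-3p. The other 3, miR-493, miR-337-5p and miR-540-3p, lie antisense to Rtl1. Neither Meg3 member and neither Rian member was detected on every array, although miR-770-5p was missing from 1 array only. The Rian member miR-341 was on 4 arrays, while the further probe miR-341:9.1, whose target its probe matches fully, was on all 24. The 4 members detected nowhere, miR-380-5p, miR-496, miR-377 and miR-412, all lie in the stretch from miR-379 to miR-410. The further probe miR-412:9.1 was detected on 1 right array at 48 h.

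**Figure D1:**
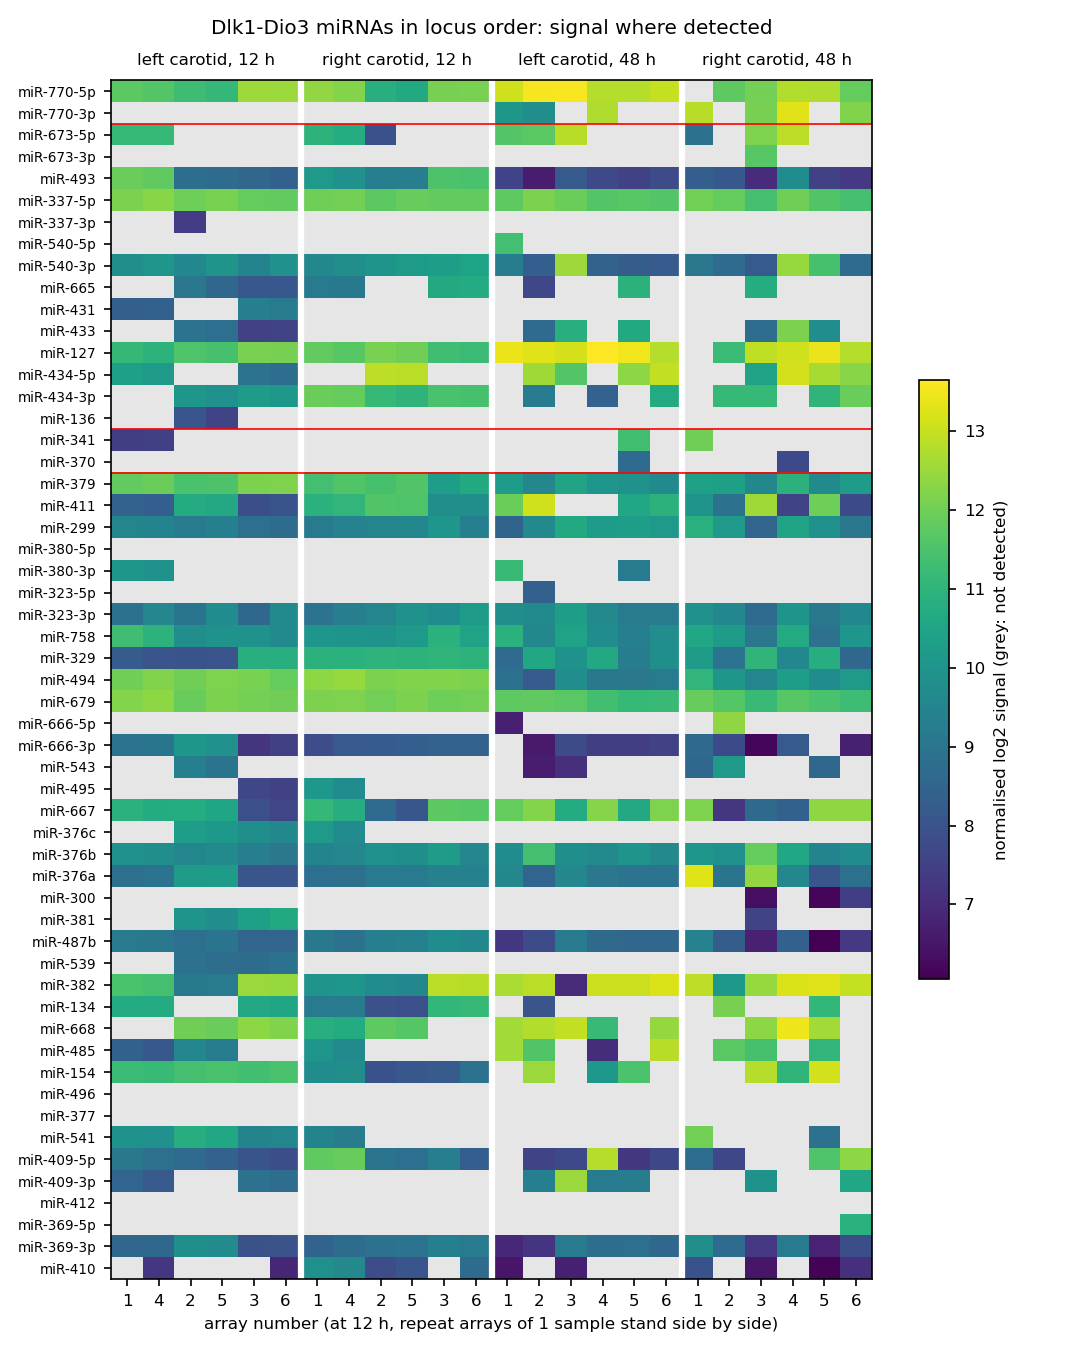
Normalised log2 signal of the 55 members (rows, in locus order) on the 24 arrays (columns), coloured where the probe was detected and grey where it was not. Red lines separate the Meg3, Rtl1 antisense, Rian and miR-379 to miR-410 stretches, and colours compare arrays within a row, not rows with each other. The 16 members detected on all arrays form unbroken rows, while 35 members switch between colour and grey.

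At 12 h the left arrays detected more members than most right arrays did. The left arrays detected 31 to 36 members (median 33.5) and the right arrays 25 to 32 (median 27.5), that is 56.4% to 65.5% on left arrays and 45.5% to 58.2% on right arrays. The other 600 probes showed the same order, with 60.7% to 65.8% detected on left arrays and 56.5% to 61.3% on right arrays. The ranges overlap in both sets. At 48 h the member counts were alike, 25 to 34 (median 27) on left arrays and 25 to 34 (median 27.5) on right arrays.

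Of the 55 members, 10 (18.2%) were detected at 12 h on at least 1 left array and on no right array, and 0 the other way round. Of the other 600 probes, 6.83% were seen on the left only and 6.33% on the right only. These 10 were miR-136, miR-337-3p, miR-341, miR-380-3p, miR-381, miR-409-3p, miR-431, miR-433, miR-539 and miR-543. Several rest on 1 left sample each, seen through its repeat arrays. Only left sample 2 carried miR-136 and miR-543, and only left sample 1 carried miR-341 and miR-380-3p. For miR-337-3p it was array 2 alone. The further probe miR-341:9.1 was detected on every array of both arteries, so the left-only pattern of miR-341 holds for 1 of its probes. At 48 h 3 members (5.45%, against 7.67% of the other probes) were seen on left arrays only, miR-323-5p, miR-380-3p and miR-540-5p. On right arrays only there were 5 (9.09%, against 9.5%), miR-300, miR-369-5p, miR-381, miR-541 and miR-673-3p. Only miR-380-3p was on the left-only list at both times, and miR-381 was left-only at 12 h and right-only at 48 h.

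**Figure D2:**
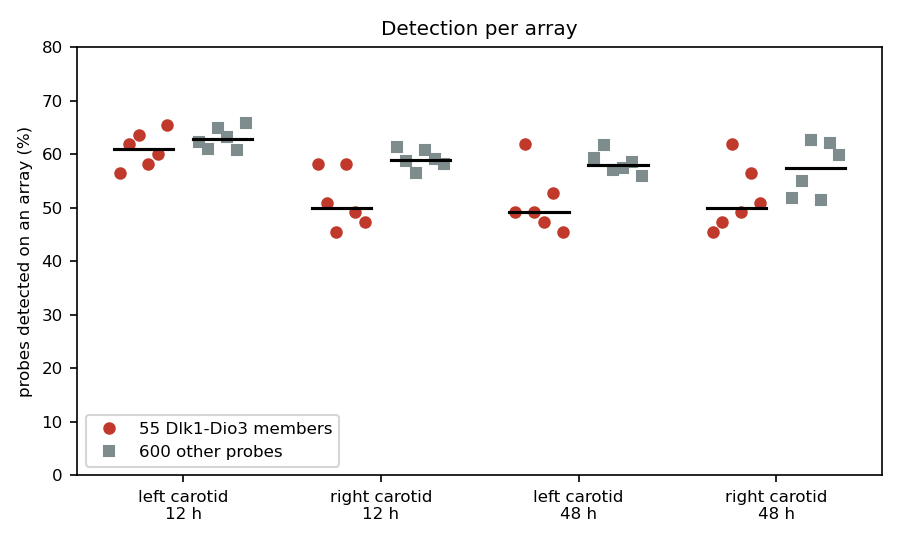
Share of probes detected on each array (y axis, percent) for the 55 members (red circles) and the 600 other probes (grey squares), in the 4 groups, with black bars at the group medians. The median number of members detected was 33.5 on left arrays and 27.5 on right arrays at 12 h, and 27 on left arrays and 27.5 on right arrays at 48 h.

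The first comparison asked which members differed between the ligated left and the right carotid 12 h after surgery. None passed the test, and the locus did not move as a block: of the 37 members tested, 18 were higher and 19 lower on average in the left carotid, with a median log2 difference of -0.03, against -0.05 over all 430 probes tested. Members counted as tested were detected on at least 3 arrays of either artery. The values below are normalised log2 signals, in which a difference of 1 is a doubling. By limma with Benjamini-Hochberg adjustment over all 430 probes, 0 of 37 members had an adjusted p under 0.05, against 0.465% of all probes tested (2 of 430). At an unadjusted p under 0.05 there were 3 members (8.11%, against 9.53% of all probes), 2 higher (5.58% of all probes) and 1 lower (3.95%). In this bulk RNA fewer cells of a type and less of a miRNA per cell cannot be told apart.

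The samples of the arteries did not overlap for 6 members (16.2%), against 19.1% of all probes tested. In 2 of them, miR-154 and miR-541, both cut from the end of the locus that holds Mirg, the left samples were higher (6.05% of all probes). In the left carotid miR-154 had 11.21, 11.43 and 11.41, against 9.78, 8.03 and 8.57 in the right carotid. The left samples lay within a fraction of a log2 unit of each other and all stood above the right ones. The difference was 2.56 ± 0.52 (SE, n = 3 samples each), with an adjusted p of 0.206 by limma, the lowest of any member. The other, miR-541, had 9.92, 10.67 and 9.51 in the left carotid, against 9.37, 5.90 and 6.01 in the right. It was detected on all 6 left arrays and on 2 right arrays, those of right sample 1, which came close to the left samples. It thus passed the filter through the left arrays alone. Its difference was 2.94 ± 1.03 (limma adjusted p = 0.399).

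In the other 4, miR-410, miR-329, miR-434-3p and miR-494, the left samples were lower (13% of all probes). The left carotid had 8.15, 8.05 and 10.85 for miR-329, against 10.92, 10.98 and 10.99 in the right. Left sample 3 lay just under the tightly grouped right samples and the other left samples far below them. The difference was -1.95 ± 0.81 (limma adjusted p = 0.495). For miR-434-3p, 1 of the miRNAs that pair with the Rtl1 message, the left samples had 6.13, 9.99 and 10.17 and the right samples 11.89, 11.07 and 11.46. Left sample 1 was not detected, and the difference was -2.71 ± 1.14 (limma adjusted p = 0.495). Without left sample 1 it was -1.39. The last member of the locus, miR-410, was detected on 2 left and 5 right arrays and passed the filter through the right arrays alone. It had 7.24, 7.34 and 6.90 in the left carotid and 9.74, 7.96 and 8.38 in the right, a difference of -1.53 ± 0.57 (limma adjusted p = 0.422). By far the smallest of the 6 was that of miR-494, -0.20 ± 0.17 (limma adjusted p = 0.653), with 12.10, 12.10 and 11.98 in the left carotid and 12.42, 12.18 and 12.18 in the right.

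Of the 10 members seen on left arrays only, 5 were detected on at least 3 left arrays and so were tested. These were 5 of the 37 tested members, against 21 of 430 of all probes tested (4.88%). For the opposite pattern there were 0 members, against 0.233% of all probes. They passed the filter through the left arrays alone, so that they came out higher there is built into the choice. Each was detected in 2 of 3 left samples, which were not the same ones for each miRNA. The left samples had 5.84, 9.87 and 10.52 for miR-381, against 6.91, 5.93 and 6.00 in the right carotid. Left samples 2 and 3 were high and left sample 1 was at the level of the right samples. The same left samples, 2 and 3, carried miR-539 (5.99, 8.85 and 8.83, against 6.04, 6.06 and 6.14 in the right) and miR-433 (5.84, 8.89 and 7.58, against 5.90, 5.94 and 6.01 in the right). Left samples 1 and 3 carried miR-431 (8.38, 6.10 and 9.25, against 6.10, 6.14 and 6.23 in the right) and miR-409-3p (8.35, 5.66 and 8.84, against 5.67, 5.66 and 5.71 in the right).

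Set against the lowest signal of detected probes on the right arrays, the left mean of miR-381 was at least 1.99-fold higher, that of miR-431 at least 1.12-fold and that of miR-539 at least 1.1-fold higher. This bound takes, for each right array, the higher of that lowest signal and the probe's own signal. For miR-433 and miR-409-3p no bound above 1 could be given. The limma adjusted p of these 5 members ran from 0.497 to 0.512. Limma's threshold was passed by miR-381 (3.91) and miR-539 (2.76) without left sample 1, and by miR-409-3p (2.91) without left sample 2. In each case the sample left out is the left one in which the probe was not detected, so with the filter through left arrays this outcome is built into the choice and is not evidence of a difference.

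Of the neuronal markers looked up beside these results, miR-9 was also detected at 12 h on all 6 left arrays and on 0 right arrays (limma adjusted p = 0.251), miR-128 on all 12 arrays and miR-124 on none. Before normalisation, the summed signal of these 3 probes was 1569 to 6940 on left arrays and 924 to 1450 on right arrays. Their part in the differences of the locus was not tested, nor was that of the larger number of probes detected on left arrays.

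Of the tested members outside these groups, miR-411 (-1.77 ± 0.87) and miR-409-5p (-1.35 ± 0.91) were among the 5 with the lowest differences, both with overlapping samples. Without right sample 1 that of miR-409-5p was -0.35. By stretch, 3 of the 10 tested members antisense to Rtl1 were higher and 7 lower in the left carotid (median -0.20), and in the stretch from miR-379 to miR-410 14 were higher and 12 lower (median 0.03). Of the members on all 24 arrays, miR-337-5p differed by 0.15 ± 0.20, miR-679 by 0.03 ± 0.18, miR-540-3p by -0.25 ± 0.34 and miR-376b by -0.21 ± 0.35. Others on all arrays had larger differences or SEs. These included miR-379 (0.68 ± 0.39), miR-667 (-0.60 ± 1.20), miR-493 (-0.58 ± 1.08) and miR-382 (0.19 ± 1.20). Differences of more than 1 log2 unit in either direction were seen for 13 of 37 members (35.1%), against 24.4% of all probes tested, beside a median spread within groups (SD) of 1.12 for members, against 0.46 for all probes.

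**Figure D3:**
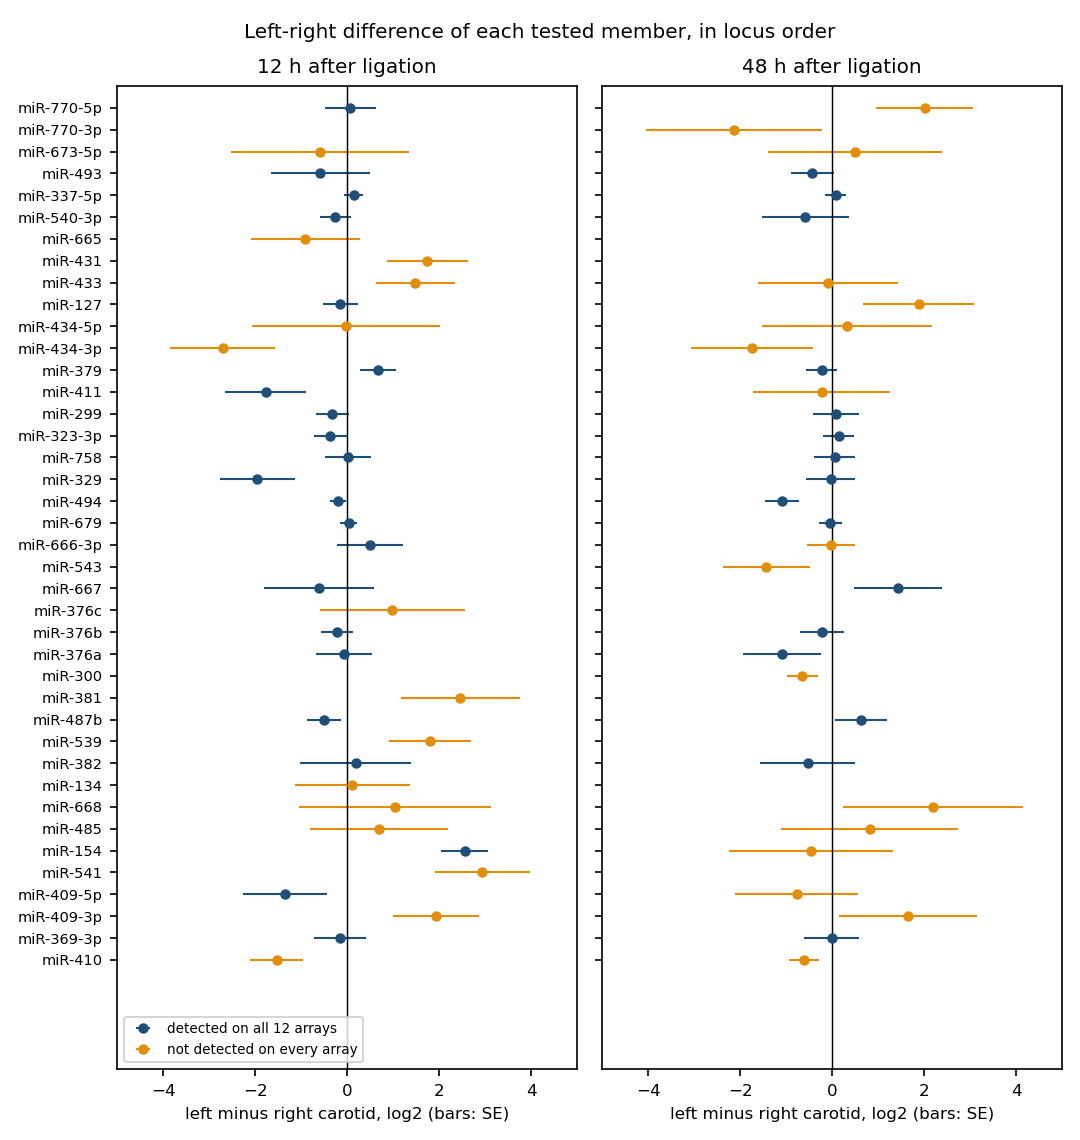
Difference of the left minus the right carotid (x axis, log2) with its standard error for each tested member, in locus order from top to bottom, at 12 h (left panel) and 48 h (right panel). Blue points were detected on all 12 arrays of the time point and orange points were not. Points fall on both sides of 0 along the locus, 18 above and 19 below 0 at 12 h and 13 above and 20 below 0 at 48 h, and no member passed the adjusted threshold.

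At 48 h, the time the study was mainly concerned with, the same question gave 0 of 33 tested members at an adjusted p under 0.05, against 2.95% of all probes tested (12 of 407). On average 13 members were higher and 20 lower in the left carotid, with a median difference of -0.04, against -0.00 over all probes. At an unadjusted p under 0.05 there was 1 member (3.03%), against 17.7% of all probes: 0 were higher (10.1% of all probes) and 1 was lower (7.62%). That member was miR-494. In the left carotid it had 8.91, 8.22, 9.77, 9.10, 9.05 and 9.19, against 11.06, 10.08, 9.55, 10.32, 9.70 and 10.12 in the right. Each left sample was under the mean of the right samples, and only left sample 3 reached into the range of the right samples. The difference was -1.10 ± 0.37 (SE, n = 6 each; limma adjusted p = 0.135). It was -0.75 without right arrays 1, 2 and 4, the arrays with the fewest detected probes.

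The samples of the arteries did not overlap for 1 member (3.03%), against 4.67% of all probes tested. This was miR-770-5p, the first miRNA of the locus, higher on the left (3.19% of all probes), while 0 members were wholly lower there (1.47%). In the left carotid it had 13.10, 13.55, 13.56, 12.82, 12.80 and 12.98, against 5.54, 11.77, 12.06, 12.77, 12.75 and 11.85 in the right. The lowest left sample and the highest right sample were nearly equal, and right sample 1, in which the probe was not detected, stood far below all others. The difference was 2.01 ± 1.05 (limma adjusted p = 0.307). With right sample 1 left out it was 0.90 (limma adjusted p = 0.0972).

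The Rtl1 antisense miRNA miR-127 had the same shape. Its left samples had 13.44, 13.27, 13.17, 13.65, 13.50 and 12.80, against 5.06, 11.23, 12.91, 13.10, 13.42 and 12.80 in the right carotid. It too was not detected in right sample 1, right sample 2 was also below the left range, and right samples 3 to 6 reached into it. The difference of 1.88 ± 1.21 (limma adjusted p = 0.424) became 0.61 without that sample.

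The other members with the largest positive differences were miR-668, miR-409-3p and miR-667. The probe of miR-668 was detected in 5 left and 3 right samples. Its left samples had 12.59, 12.78, 12.95, 11.19, 5.04 and 12.44, and its right samples 5.03, 5.07, 12.35, 13.45, 12.59 and 5.35. Where the probe was detected, both arteries reached about the same level, and the difference was 2.19 ± 1.96. It was 3.42 without left sample 5 and 1.07 without right arrays 1, 2 and 4. For miR-409-3p, detected in 4 left and 2 right samples, it was 1.65 ± 1.49, and -0.10 without right arrays 1, 2 and 4. For miR-667, detected in all samples, the left samples had 11.86, 12.24, 10.73, 12.26, 10.63 and 12.17 and the right samples 12.17, 7.24, 8.66, 8.41, 12.39 and 12.38. Its left samples kept close together while its right samples fell into high and low ones, and the difference was 1.44 ± 0.96 (0.50 without right arrays 1, 2 and 4).

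The lowest differences were those of miR-770-3p (-2.14 ± 1.91), miR-434-3p (-1.74 ± 1.32), miR-543 (-1.43 ± 0.95), miR-494 and miR-376a (-1.09 ± 0.84), and the samples of all 5 overlapped. The left samples of miR-376a had 9.56, 8.54, 9.58, 9.05, 8.95 and 8.95, against 13.28, 8.97, 12.41, 9.56, 8.09 and 8.84 in the right carotid. Right samples 1 and 3 were high, right sample 5 was below the left range, and the remaining right samples were within it. Without right sample 1 its difference was -0.47, and without right sample 3 it was -0.65. The limma adjusted p of the members named here other than miR-494 and miR-770-5p ran from 0.424 to 0.585. On 0 left and 3 right arrays miR-300 was detected, the only member of that kind at 48 h (1.47% of all probes), and its signal was too low to give a bound. For the opposite kind, with at least 3 left and 0 right arrays, there were 0 members (1.47% of all probes).

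By stretch, 4 of the 8 tested members antisense to Rtl1 were higher and 4 lower in the left carotid at 48 h (median -0.01), and from miR-379 to miR-410 8 were higher and 15 lower (median -0.04). Of the members on all 24 arrays, miR-337-5p differed by 0.08 ± 0.23, miR-679 by -0.04 ± 0.25 and miR-323-3p by 0.14 ± 0.34. Others on all arrays spread more, such as miR-382 (-0.53 ± 1.04) and miR-540-3p (-0.58 ± 0.94). Before normalisation, the summed signal of the neuronal probes at 48 h was 381 to 6166 on left arrays and 268 to 2637 on right arrays. That of the smooth muscle probes was 24965 to 37963 on left arrays and 26706 to 41812 on right arrays. The summed signal of the 5 leukocyte probes at 48 h, also before normalisation, did not overlap. It was 25458 to 33089 on left arrays and 1660 to 25269 on right arrays, which include the arrays with the fewest detected probes. Of the leukocyte probes 3 were tested and 0 passed the threshold, while miR-142-5p and miR-155 were each detected on 0 left arrays and 1 right array. The part of these markers in the values of the locus was not tested.

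**Figure D4:**
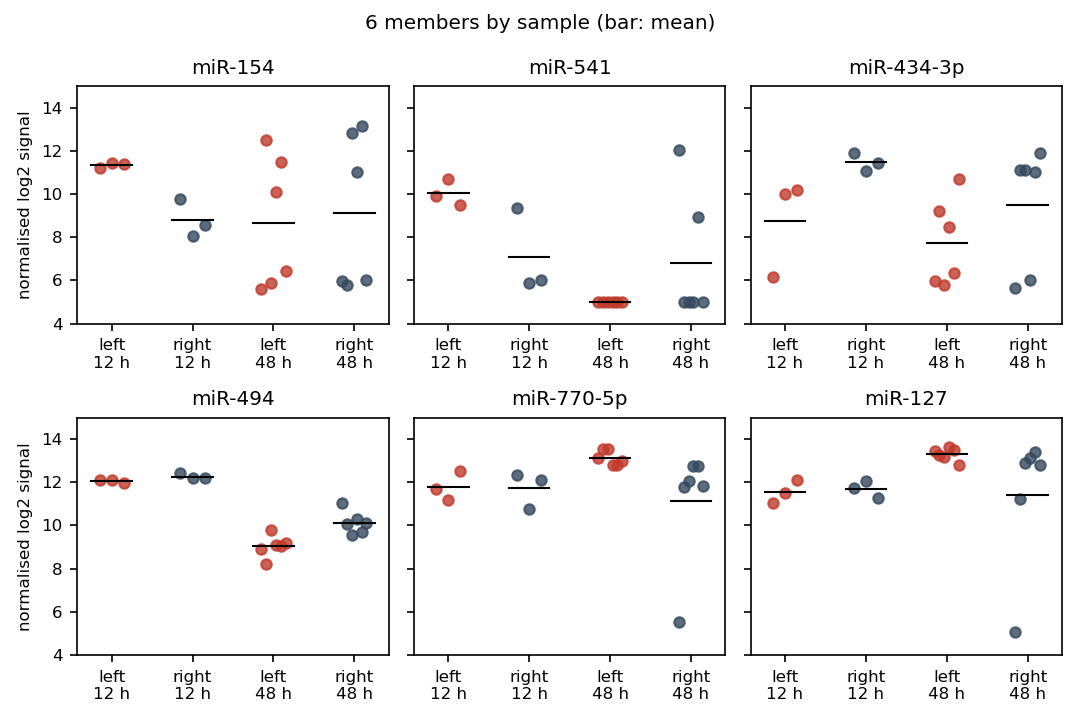
Normalised log2 signal (y axis) by sample for miR-154, miR-541, miR-434-3p, miR-494, miR-770-5p and miR-127 in the left (red) and right (dark) carotid at 12 h (3 samples each) and 48 h (6 samples each), with bars at the means. At 12 h the left samples of miR-154 and miR-541 stand above the right ones. At 48 h miR-154 splits into high and background samples in both carotids. In the right carotid miR-541 splits in the same way, and its left samples are all at background. Right sample 1 at 48 h is near background for miR-770-5p (5.54) and miR-127 (5.06).

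Whether the left-right difference itself differed between the times was tested on the 40 members measurable at either time. For 0 of them did the change at 48 h differ from the change at 12 h at an adjusted p under 0.05, against 0.211% of all probes (1 of 474). At an unadjusted p under 0.05 there were 4 (10%), against 10.3% of all probes, and all 4 had a lower left-right difference at 48 h: miR-539 (-1.82 ± 0.62, limma adjusted p = 0.294), miR-431 (-1.75 ± 0.61), miR-381 (-2.92 ± 1.09) and miR-541 (-4.76 ± 1.85). All 4 passed the filter through the left arrays at 12 h alone, so a lower difference at 48 h is built into the choice. The first 3 are among those seen on left arrays only at 12 h. At 48 h miR-539 and miR-431 were detected on no array of either artery. Their SE here is below that of their 12 h difference (0.89 and 0.88), because it also pools the nearly constant background values of 48 h. It therefore understates the spread of the 12 h samples. The contrast passed limma's threshold for miR-539 and miR-381 without left sample 1 of 12 h, and for miR-431 without left sample 2 of 12 h. These are again the left samples in which the probes were not detected, so passing is built into the choice of sample and is not evidence of a difference. Of the 30 members tested at both times, 6 were higher and 11 lower in the left carotid at both, 6 were higher at 12 h and lower at 48 h, and 7 were lower at 12 h and higher at 48 h.

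Levels at the 2 times were set side by side after joint normalisation of all arrays, without a test, because each time came from a table of its own and time and table cannot be told apart. The median difference of 48 h minus 12 h over these 40 members was 0.45 in the left and 0.13 in the right carotid, against 0.22 in the left and 0.13 in the right over all 474 probes. Single members moved much further than these medians. In the left carotid miR-494 averaged 12.07 ± 0.07 at 12 h (SD, n = 3) and 9.43 ± 0.40 at 48 h (n = 6), and in the right carotid 12.28 ± 0.14 and 10.33 ± 0.46. For miR-127 the left carotid had 11.5 ± 0.62 at 12 h and 13.32 ± 0.32 at 48 h, and the right carotid 11.68 ± 0.43 and 11.49 ± 3.03. The level of miR-337-5p was nearly the same in all groups, 12.04 ± 0.21 at 12 h and 11.80 ± 0.19 at 48 h in the left carotid and 11.88 ± 0.13 and 11.72 ± 0.27 in the right.

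Many members behaved as present or absent from sample to sample. At 48 h 22 members were detected on some but not all left arrays, and 25 on some but not all right arrays. The median distance between the highest and lowest array of such a member was 6.25 log2 units in the left and 6.65 in the right carotid. At 12 h there were 20 such members on left arrays, with a median range of 3.34, and 9 on right arrays, with 4.13. Ranges are not comparable between the times: the 12 h arrays are repeat pairs, and background was higher there. The undetected miR-380-5p averaged 5.71 on the left at 12 h and 5.02 at 48 h. These counts and ranges were not taken for the other probes. Over all 24 arrays, 63.6% of members and 55% of the other probes were detected on some but not all. An example is miR-154, whose left samples at 48 h had 5.59, 12.51, 5.88, 10.11, 11.49 and 6.41, against 5.96, 5.77, 12.80, 11.03, 13.14 and 6.01 in the right carotid. It was detected in left samples 2, 4 and 5 and right samples 3, 4 and 5, with no sample between 6.41 and 10.11. The spread within groups at 48 h had a median SD of 1.72 for tested members, against 0.91 for all probes tested. With samples that far apart, 54.5% of members spanned more than 4 log2 units, against 42.0% of all probes.

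The arms of 1 hairpin come from the same precursor, and usually 1 of them is kept. For 5 of the 10 hairpins with both arms among the members, 1 arm was detected on 22 to 24 arrays and the other on 1 or 2. The arm detected more often was the 3p arm for miR-323, miR-369 and miR-540 (24 arrays, against 1 for the 5p arm) and for miR-666 (22 against 2). For miR-337 it was the 5p arm (24 against 1). Each arm has a probe of its own, so these counts do not show which arm is kept. For miR-770 the 5p arm was on 23 arrays and the 3p arm on 7. Both arms were often seen for miR-434 (5p on 14 arrays, 3p on 17, both together on 9) and miR-409 (5p on 21, 3p on 10, both on 9). The arms of miR-409 lay on opposite sides of 0 at both times: the 5p arm differed by -1.35 at 12 h and -0.77 at 48 h, and the 3p arm by 1.94 at 12 h and 1.65 at 48 h, none past the threshold. The 5p value was -0.35 at 12 h without right sample 1 and -0.08 at 48 h without right sample 6. The 3p arm passed the filter at 12 h through left arrays alone, and at 48 h it was -0.10 without right arrays 1, 2 and 4, on the same side as the 5p arm. The difference between arms was not tested. The 5p arm of miR-673 was on 11 arrays and its 3p arm on 1, and miR-380 was seen through its 3p arm only, on 4 arrays.

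**Figure D5:**
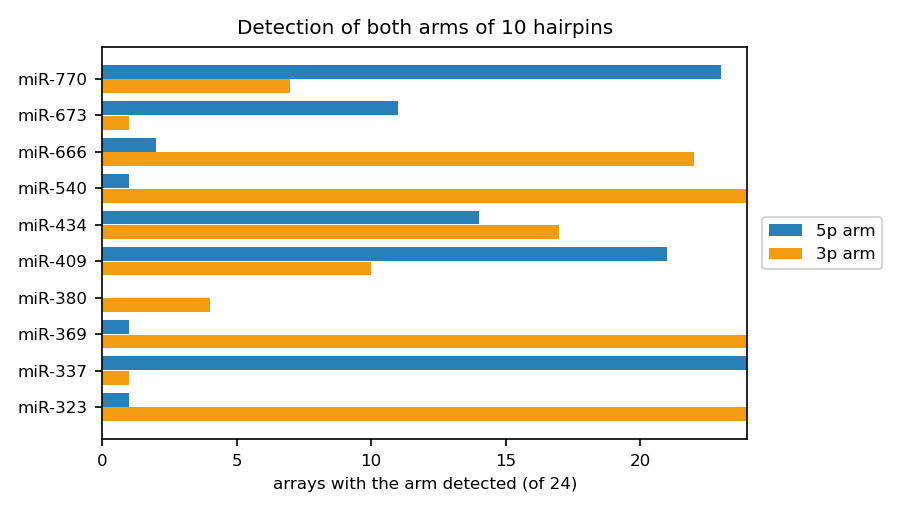
Number of the 24 arrays (x axis) on which the 5p arm (blue) and the 3p arm (orange) was detected, for the 10 hairpins with both arms among the members. For miR-323, miR-369 and miR-540 the 3p arm was on 24 arrays and the 5p arm on 1, while miR-337 showed the opposite.

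By their given coordinates, a further 21 probes of the array lie in the same interval, 13 star strands of member hairpins and 8 other miRNAs. Of them 7 were tested at 12 h and 8 at 48 h, and 0 passed the threshold (0.465% and 2.95% of all probes). On all 24 arrays miR-382* was detected, like its partner miR-382, as were miR-1197, miR-453, miR-654-3p and miR-654-5p. The star strand of miR-433 was detected on 15 arrays and miR-433 itself on 10, and at 48 h the star strand was seen on all 12 arrays. The star strand of miR-376b was on 12 arrays, 6 left and 5 right ones at 12 h and 0 left and 1 right at 48 h. Not among the 21 are the further probes miR-341:9.1, miR-412:9.1 and miR-411*:9.1. The last of these was on all 24 arrays, while miR-411* was on 0.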

How the data were processed

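The authors deposited, per time point, a table of signal intensity with a detection p-value for each probe and array. The submitters' processing notes name GenomeStudio 2010.2, and whether background was subtracted is not stated in these sources. Processed intensity values, also deposited, matched quantile normalisation of these signals within a time point on a linear scale, uncentred (median difference 0.193% and 0.475%; column medians 1069 to 1079 at 12 h and 559 to 568 at 48 h), and served as an alternative. Signals were corrected and normalised with neqc (limma 3.58.1, R 4.3.3; offset 16, log2) per table, with repeat arrays averaged (rank correlation over 0.98). Probes with detection p under 0.05 on at least 3 arrays of a group were tested with lmFit and eBayes (trend), two-sided, Benjamini-Hochberg adjusted, threshold 0.05. The change at 48 h minus the change at 12 h was a contrast fitted to all samples. The fit was tried on simulated, normally distributed values. These do not jump between background and signal as many members do, so the trial does not cover such members. The number of arrays limits the precision; slide and scan are not in the tables.

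The members, lists and tests were chosen with earlier results of these data known. Named members were those past the threshold, the 5 highest and 5 lowest differences at each time, those without overlap, those on all 24 arrays, those seen in 1 artery only on at least 3 arrays, and both arms of hairpins; members outside these were named after their values were seen. Marker lists covered endothelium, smooth muscle, striated muscle, leukocytes, erythroid cells, neurons and fibroblasts. Of the list probes found by exact name, 0 passed the threshold at either time. The array measures miR-199a-3p and miR-199b with a joint probe, detected on every array, which the lookup by exact name missed. The fibroblast list therefore held 2 of its 4 names. Sample numbers are shared between arteries, but nothing in the labels pairs them, and the fits have no block.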

Additional observations from a re-analysis of the deposited data

Results flagged for a closer look

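In 8 of the 66 groups of 6 samples checked at 48 h (12.1%), 1 sample lay far from the others by Dixon's criterion. Its nominal rate of about 1 in 20 holds for normally distributed values. Many members jump between background and signal, so that rate is no chance rate here, and the other probes were not checked. Groups at 12 h, with 3 samples, were not checked. Low samples were those of miR-770-5p in right sample 1 (5.54), miR-127 in right sample 1 (5.06), miR-668 in left sample 5 (5.04), miR-382 in left sample 3 (6.94) and miR-382 in right sample 2 (10.11). High samples were those of miR-540-3p in left sample 3 (12.52), miR-376b in left sample 2 (11.41) and miR-409-5p in left sample 4 (12.80). Right samples 1 and 2 are among the arrays with few detected probes (336 and 356). The source of these values was not tested.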

How the results depend on the processing

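The count of members past the threshold was 0 at 48 h under every alternative run: 75th percentile scaling, no background subtraction, the authors' processed values, no detection filter, a detection p of 0.01, no intensity trend, the replicate number as a block, each sample left out, and, chosen after seeing the data, without right arrays 1, 2 and 4. At 12 h it was 6 with every array as a sample (miR-154, adjusted p = 0.000574, miR-541, miR-410, miR-329, miR-434-3p and miR-409-3p), a setting that counts repeat arrays as samples. It ranged from 0 to 2 with a sample left out, and for the difference between times it also ranged from 0 to 2 (without left 12 h sample 1 or 2); it was 0 otherwise. The replicate block gave 0 members at 12 h, at 48 h and for the difference; over all probes it left 0 calls at 12 h and 0 at 48 h. Deviations of same-numbered left and right samples correlated by 0.02 to 0.06 at 12 h, each highest with its own number. At 48 h they correlated by -0.17 to 0.02, and 0 of 6 were highest with their own number. Correlations this weak do not settle whether the numbers pair the samples. The median member difference stayed within the spread of samples, which with a sample left out reached from -0.22 up to 0.03 at 12 h, while at 48 h it lay between -0.21 and -0.01. With 75th percentile scaling it was 0.17 at 12 h, where the median of all probes moved to 0.07, against -0.05. Under at least 1 alternative 21 of 37 members at 12 h, 19 of 33 at 48 h and 17 of 40 for the difference changed sign. Over all probes the calls at 12 h were 2, against 72 with every array as a sample, 6 without left sample 1 and 1 without the detection filter, without background subtraction or with the authors' values. At 48 h they were 12, against 25 without the filter, 4 with 75th percentile scaling, 7 without the trend, 0 without left sample 5 and 6 without left sample 4. Leaving out right sample 2 gave 4, and leaving out right arrays 1, 2 and 4 together gave 6. For the difference they were 1, against 17 with every array as a sample, 6 without the filter, 3 with 75th percentile scaling and 9 without left 12 h sample 2. The cause of these shifts was not tested. The SE of the difference was over 1 for 35.1% of tested members at 12 h and 42.4% at 48 h, bright members included, which limits what could be called.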
